A study of Mus musculus with 20 samples.

Results

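The genes of the constitutive proteasome were examined in mouse CFU-E, progenitor cells of bone marrow that are committed to the red cell lineage. Members were the protein-coding genes whose symbol begins with Psma, Psmb, Psmc or Psmd followed by a number, without the inducible subunits Psmb8, Psmb9 and Psmb10. Of 37748 entries in the expression table, 37 had such a symbol and 36 passed the filter on low values, which asked for 5 or more of the 20 libraries to reach a value of 1. Psmb11, the thymus-specific beta subunit, did not pass, with a highest value of 0.0648. The lowest member that passed, the testis variant Psma8, ranged from 3.17 to 8.31. The symbol rule is wider than the label of a constitutive subunit: it takes in Psma8, the 19S assembly chaperones Psmd5, Psmd9 and Psmd10, and Psmc3ip, a recombination factor that is no subunit. The other 31 members were 14 subunits of the 20S core and 17 subunits of the base and lid of the 19S regulatory particle, and groups are given below by these roles.

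The 26S proteasome degrades proteins that carry ubiquitin chains. Its 20S core is a barrel of outer alpha rings, which gate entry, and inner beta rings, in which Psmb5, Psmb6 and Psmb7 are the proteolytic subunits. The 19S particle caps the core: its base holds the ATPases Psmc1 to Psmc6, which unfold and thread the substrate, and its lid holds Psmd14, the enzyme that removes ubiquitin. Maturing red cells remove most of their organelles and proteins, in part through this system, and the transcription factors Nfe2l1 and Nfe2l2 are known activators of proteasome genes, through antioxidant response elements.

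RNA was sequenced in 20 libraries, 5 in each of 4 groups. All mice carried Mx1-Cre, a transgene in which an interferon-inducible promoter drives the Cre recombinase in blood-forming and many other cells. The controls carried Mx1-Cre alone, and the mutants, called P95H here, were Mx1-Cre Srsf2 P95H/+, with 1 allele of the splicing factor Srsf2 mutated. Mice of each genotype were given PBS or phenylhydrazine (PHZ), which lyses red cells, by subcutaneous injection (30 mg/kg, given on day 0 and again on day 1), and on day 4 the CFU-E were sorted from bone marrow as live, lineage-negative, c-Kit-high and CD105-positive cells without Sca-1, CD41, CD16/32 or CD150. Ages are not given in the labels, and nothing in them says that each library came from a separate animal, so p-values measure the spread between these libraries, which may be technical.

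The deposited values have the form of TPM, a level per transcript length, times 1 scaling factor per library (0.940 to 1.10), so levels can be compared between genes. The read counts behind single values are unknown. All 11 erythroid markers passed the filter, none at 0 throughout a group, with a summed level of 7240 to 10952.5 per library. Granulocyte and monocyte markers were also found (16 of 18 passed the filter): their summed level lay between 461 and 968 for controls on PBS and between 153 and 1093 for controls on PHZ. For P95H it lay between 572 and 2510.3 on PBS and between 161 and 605 on PHZ. Megakaryocyte, lymphoid, macrophage and basophil marker lists each summed to at most 17.7 in a library.

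Promoter windows were compared because 11 of 17 base and lid genes and 0 of 14 core genes were called after PHZ in control CFU-E, as given below. The windows come from RefSeq on GRCm38.p6 and hold 250 bases before and 50 bases after a transcript start. They matched 29 of the 36 members with 31 windows; Psma8, Psmb1, Psmb2, Psmb7, Psmc3, Psmd3 and Psmd7 had none in use. Both strands were searched for the antioxidant response element cores TGACNNNGC and TGAGNNNGC, the NF-Y box CCAAT and the ETS core CCGGAAG, each counted separately, so that matches may overlap. Capitals mark every match to these motifs, also where it lies on the other strand. The first 3 sequences are lid genes with an ETS core, called higher after PHZ in Mx1-Cre CFU-E, and the last 2 are core genes that were not called in either genotype. Not all genes paired motif and call in this way. Among those not shown, the lid gene Psmd14 was called without an ETS core, and the lid gene Psmd13 and core gene Psma6 held one without a call.
Psmd12: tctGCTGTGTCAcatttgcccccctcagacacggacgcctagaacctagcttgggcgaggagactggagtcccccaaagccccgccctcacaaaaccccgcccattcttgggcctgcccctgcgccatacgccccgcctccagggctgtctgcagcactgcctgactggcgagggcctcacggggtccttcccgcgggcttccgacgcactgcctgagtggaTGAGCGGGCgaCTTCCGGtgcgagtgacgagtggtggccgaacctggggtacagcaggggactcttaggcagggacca
Psmd6: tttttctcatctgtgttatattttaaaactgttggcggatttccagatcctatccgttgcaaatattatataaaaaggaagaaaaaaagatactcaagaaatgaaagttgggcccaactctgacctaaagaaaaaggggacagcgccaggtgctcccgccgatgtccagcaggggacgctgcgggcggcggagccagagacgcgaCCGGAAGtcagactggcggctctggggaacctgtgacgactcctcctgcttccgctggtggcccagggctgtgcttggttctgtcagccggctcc
Psmd11: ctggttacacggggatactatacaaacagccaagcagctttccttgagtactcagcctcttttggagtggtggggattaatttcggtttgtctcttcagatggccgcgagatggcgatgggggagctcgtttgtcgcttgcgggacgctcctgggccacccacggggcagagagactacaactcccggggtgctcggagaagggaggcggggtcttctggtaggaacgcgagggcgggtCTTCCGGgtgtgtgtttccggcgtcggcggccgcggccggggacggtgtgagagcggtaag
Psmb5: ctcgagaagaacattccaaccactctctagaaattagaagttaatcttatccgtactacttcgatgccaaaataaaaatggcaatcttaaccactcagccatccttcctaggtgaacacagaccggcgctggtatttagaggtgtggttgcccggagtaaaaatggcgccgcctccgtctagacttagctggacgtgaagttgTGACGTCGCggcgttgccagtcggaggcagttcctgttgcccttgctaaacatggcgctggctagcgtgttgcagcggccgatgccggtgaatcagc
Psma3: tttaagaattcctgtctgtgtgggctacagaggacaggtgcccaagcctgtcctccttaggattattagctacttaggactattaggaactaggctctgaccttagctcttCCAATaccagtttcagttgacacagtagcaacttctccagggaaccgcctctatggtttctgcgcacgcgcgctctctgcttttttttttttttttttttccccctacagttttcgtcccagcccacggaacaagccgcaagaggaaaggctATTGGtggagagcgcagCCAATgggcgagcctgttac
The windows lie at chr11:107479278-107479577 (plus strand), chr14:14120896-14121195 (minus), chr11:80428365-80428664 (plus), chr14:54617946-54618245 (minus) and chr12:70974373-70974672 (plus). Counted from 1 at the 5′ end of the window, the ETS core starts at base 234 in Psmd12, 206 in Psmd6 and 240 in Psmd11, within 45 bases before the start of transcription in each. Psmb5 has an antioxidant response element core at base 204, and Psma3 has CCAAT boxes at bases 112, 264 and 281. CCGGAAG was found in 10 of 15 windows of the base and lid genes (66.7%) and 1 of 12 windows of the core genes (8.33%), against 8.86% of the 32851 windows of all genes and 20.02% of the 10515 windows of entries that passed the filter. Either antioxidant response element core was found in 8 of 12 core windows (66.7%) and 5 of 15 base and lid windows (33.3%). The share was 27.8% of all windows and 31.36% of those of entries that passed the filter. CCAAT was found in 6 of 12 core windows (50%) and 4 of 15 base and lid windows (26.7%), against 37.4% of all and 39.06% of those that passed. Among base and lid genes with a window, 7 of the 10 called higher after PHZ in Mx1-Cre CFU-E held CCGGAAG, and so did 2 of the 4 that were not called. These are matches of letters in short windows, given as a description with no test.

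Proteasome genes were abundant, and core genes stood above regulatory particle genes in level per length. Over the 20 libraries the means of the 14 core genes ran from 209 for Psmb5 to 431.5 for Psmb4, with a median of 327, and those of the 17 base and lid genes from 139 for Psmd12 to 288 for Psmc1, with a median of 217.5. The 9 highest members were all core genes: Psmb4 (431.5 ± 33.9, SD over 20 libraries), Psmb3 (398 ± 30.4), Psma2 (390.4 ± 28.7), Psma7 (371 ± 22.4), Psmb1 (343 ± 31.1), Psma1 (343 ± 14.5), Psma3 (333 ± 23.9), Psma5 (321 ± 23.6) and Psma6 (296 ± 18.0). Of the neighbours among these 9, Psmb4 and Psmb3, Psma7 and Psmb1, and Psma5 and Psma6 differed by more than the smaller of their SDs over libraries, and the others by less. The 3 proteolytic subunits were the lowest of the core, at 252 ± 13.7 for Psmb6, 271 ± 15.9 for Psmb7 and 209 ± 13.3 for Psmb5. Below the subunits lay the chaperones Psmd9 (113 ± 7.58) and Psmd10 (55.6 ± 6.26), with Psmd5 (142 ± 7.32) between Psmd13 and Psmd12; Psmc3ip read 49.9 ± 3.15. The members together made up 0.817% of the library total in controls on PBS and 0.895% on PHZ, and 0.865% and 0.913% in P95H (group means).

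**Figure D1:**
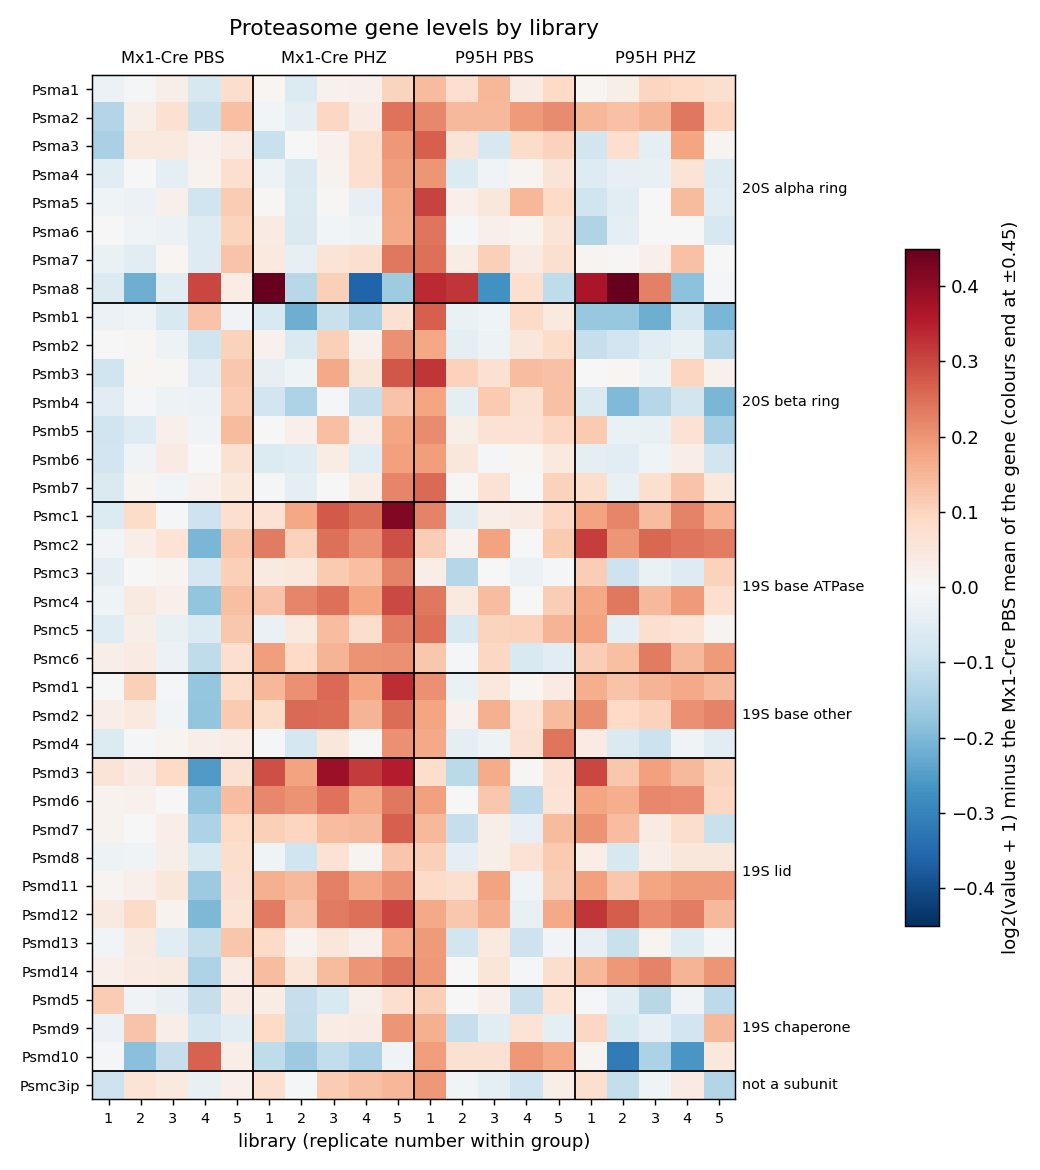
Level of each of the 36 members (rows, grouped by role) in each of the 20 libraries (columns, by group and replicate number), as log2(value + 1) minus the gene's mean in Mx1-Cre PBS; colours end at ±0.45. In the deposited scaling the base and lid rows are mostly red in the Mx1-Cre PHZ block, and Psmb1 and Psmb4 are blue in the P95H PHZ block.

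In control CFU-E, PHZ was followed by higher RNA levels of most base and lid genes of the regulatory particle. Of the 17 base and lid genes 11 rose, and of the 14 core genes none did; all 11 members that rose were base or lid genes. The comparison asks how steady-state control progenitors differ from those of a mouse answering haemolytic anaemia. It was tested with limma, a linear model fitted here to log2(value + 1) of all entries, with p-values adjusted over the 10890 entries that passed the filter and a threshold of 0.05. By that rule 11 of 36 members were higher (30.6%) against 17% of all entries tested, and 0 were lower against 14.9%. The groups did not overlap for 8 members, all higher after PHZ, against 12.6% of entries above and 9.82% below.

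Psmd3, a scaffold subunit of the lid, had the largest change. Its values were 229, 225, 234, 184 and 231 in the PBS libraries and 269, 249, 287, 274 and 281 after PHZ. All PHZ libraries lay above all PBS libraries, and the fourth PBS library was the lowest. The mean went from 221 ± 20.6 to 272 ± 14.5 (SD, n = 5 each), a log2 change of 0.30 (SE 0.0656, limma adjusted p = 0.00143).

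Psmd1, the large scaffold of the base, read 175, 188, 174, 155 and 185 under PBS and 194, 202, 209, 198 and 220.1 after PHZ. The groups did not overlap; the log2 change was 0.22 (SE 0.0541, limma adjusted p = 0.00353). Of the 6 base ATPases 4 rose. Psmc2 read 192, 197, 202, 168 and 211 under PBS and 228, 208, 229.7, 223 and 236 after PHZ, with the lowest PHZ library inside the PBS range, and a change of 0.22 (limma adjusted p = 0.00553). Psmc6 read 218, 220.2, 211, 198 and 226 and then 244, 228, 239, 247 and 248, without overlap, and changed by 0.17 (limma adjusted p = 0.0115).

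The other genes that rose were the ATPases Psmc1 (0.24) and Psmc4 (0.21), the base scaffold Psmd2 (0.20), the lid subunits Psmd12 (0.23), Psmd6 (0.21) and Psmd11 (0.18), and the deubiquitinating lid subunit Psmd14 (0.15), all log2 changes with limma adjusted p from 0.00393 to 0.0199. The call on Psmd14 was lost without the fourth Mx1-Cre PBS library (limma adjusted p = 0.0673) and without the fourth Mx1-Cre PHZ library (0.0504). The lid subunit Psmd7 did not overlap between groups but missed the threshold (0.15, limma adjusted p = 0.0652). The ubiquitin receptor Psmd4 (0.034) and the lid subunit Psmd8 (0.018) had the smallest estimates of the base and lid.

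All 17 base and lid estimates were positive, with a median of 0.18, against 12 of 14 core estimates with a median of 0.038 and a median of -0.0015 over all entries. Core estimates ran from -0.093 for Psmb1 to 0.089 for Psmb3. Mx1-Cre PHZ library 5 was the highest of its group for 31 of 36 members, all 14 core genes among them. Without it 24 of 36 member estimates were positive in place of 32, and their median was 0.043 in place of 0.072. The number of members called higher stayed at 11. The positive core estimates depend on the scaling: after quantile normalization 4 of 14 were positive (median -0.035) and Psmb1 was called lower, while 15 of 17 base and lid estimates stayed positive (median 0.12) with 9 called; Psmc6 (limma adjusted p = 0.112) and Psmd14 (0.0569) lost their calls. Dividing out the authors' factor gave 13 base and lid genes and 1 core gene called higher, with the calls over all entries tested at 2232 higher and 1219 lower in place of 1856 and 1618.

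In P95H CFU-E few members passed the test after PHZ, and in the deposited scaling the medians of core and regulatory particle lay on opposite sides of 0. Higher were 2 of 36 members (5.56%), the ATPases Psmc2 and Psmc6, against 12.6% of all entries; lower were 3 (8.33%), the core beta subunits Psmb4 and Psmb1 and the chaperone Psmd10, against 17.7%. The groups were apart for 1 member above (7.59% of entries) and 3 below (10% of entries). In the deposited scaling the shares called were below the background in both directions; with the authors' factor divided out 30.6% of members were higher against 23.6% of all entries tested.

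Psmb4, a structural beta subunit, read 494, 425, 474, 458 and 478 in P95H PBS and 418, 380.3, 399, 412 and 378 in P95H PHZ libraries. Every PHZ value lay below every PBS value, and the mean fell from 466 ± 26.1 to 398 ± 18.0 (SD, n = 5 each; log2 change -0.23, SE 0.0550, limma adjusted p = 0.00333). In Mx1-Cre mice the same gene read 421, 434, 429.7, 429 and 473 under PBS and 412, 397, 434, 407 and 478 after PHZ, with overlapping groups (-0.041, limma adjusted p = 0.608).

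Psmb1, another structural beta subunit, read 427, 347, 349, 375 and 365 under PBS and 314, 314, 304, 334 and 306 after PHZ in P95H mice, without overlap, the first PBS library being the highest. Its log2 change was -0.24 (SE 0.0602, limma adjusted p = 0.00445). In Mx1-Cre mice it read 347, 349, 337, 387 and 350.0 and then 337, 303, 329.7, 319.8 and 371, overlapping, with an estimate of -0.093.

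Psmd10, a chaperone of base assembly also known as gankyrin, read 64.3, 59.1, 59.0, 64.6 and 63.4 under PBS and 56.7, 45.0, 50.8, 46.7 and 58.2 after PHZ in P95H mice. The groups did not overlap, and the change was -0.27 (SE 0.0758, limma adjusted p = 0.00945). In Mx1-Cre mice it read 56.0, 49.3, 52.3, 67.8 and 57.5 and 51.9, 50.1, 52.1, 51.0 and 55.7, with the fourth PBS library above all others and overlapping groups.

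Psmc2 read 209, 195, 219, 193 and 210.0 under PBS and 239.9, 222, 231, 229 and 227 after PHZ in P95H mice, all PHZ values being higher (log2 change 0.16, SE 0.0558, limma adjusted p = 0.0319). Psmc6 read 234, 214, 229, 204 and 207 and then 232, 236, 253, 238 and 245, with the lowest PHZ library inside the PBS range (log2 change 0.15, SE 0.0482, limma adjusted p = 0.0259). Psmc2 was lost without P95H PBS library 2 or 4 or P95H PHZ library 1 or 3 (limma adjusted p up to 0.0835), and Psmc6 without P95H PBS library 4 or 5 or P95H PHZ library 3 (up to 0.0748). With 1 library left out, the number of members called higher ranged from 0 (without P95H PBS 4 or P95H PHZ 3) to 4 (without P95H PBS 1), and was 1 without P95H PBS 2, P95H PBS 5 or P95H PHZ 1.

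The core estimates in P95H CFU-E were all negative in the deposited scaling (0 of 14 positive, median -0.094), but 8 of 14 were positive with the authors' factor divided out (median 0.011) and 2 of 14 after quantile normalization (median -0.068). The base and lid estimates kept a positive median in all 3 scalings: 13 of 17 positive (median 0.086), 16 of 17 (0.19) and 13 of 17 (0.11). Dividing out the factor moved the median of all entries tested from -0.015 to 0.080 and their calls from 1371 higher and 1923 lower to 2575 and 1117; the members' calls moved from 2 higher and 3 lower to 11 (30.6%, against 23.6% of all entries tested) and 1 (2.78% against 10.3%). After quantile normalization 8 members were higher (22.2% against 15.5%) and 4 lower (11.1% against 15.7%). All 11 and all 8 of these higher calls were base or lid genes. With the factor divided out Psmb1 kept its call at -0.13, while Psmb4 (-0.12, limma adjusted p = 0.0544) and Psmd10 (-0.17, 0.0695) lost theirs. Psmd10 also lost its call without P95H PBS libraries 4 and 5 together (limma adjusted p = 0.0693).

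Granulocyte and monocyte markers moved in the same comparison. In P95H CFU-E 16 of 16 tested markers were called lower after PHZ (median -1.85), against 17.7% of all entries tested. In Mx1-Cre CFU-E 1 of 16 was called lower, against 14.9%, though the median was also negative (-0.92). The interaction was called for 0 of 16. In bulk libraries fewer cells of a type and less RNA per cell cannot be told apart. The mean log2 level of all 18 listed markers was 3.41 to 5.13 in P95H PBS and 2.11 to 3.37 in P95H PHZ libraries, without overlap. In Mx1-Cre it was 3.24 to 4.03 and 1.98 to 3.99, overlapping. Marker level and PHZ are therefore hard to tell apart in P95H, and calls lost there with a marker covariate cannot be assigned to either. With the mean level of these markers as a covariate, 0 members were called higher and 0 lower in P95H CFU-E, against 449 and 558 of all entries tested. The medians were 0.096 for base and lid and -0.052 for the core. Psmb1 then read -0.19 (limma adjusted p = 0.180), Psmb4 -0.12 (0.327) and Psmd10 -0.092 (0.614), and 12 base and lid genes were called higher in Mx1-Cre CFU-E, where 1320 of all entries tested were higher and 1072 lower with the covariate.

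**Figure D2:**
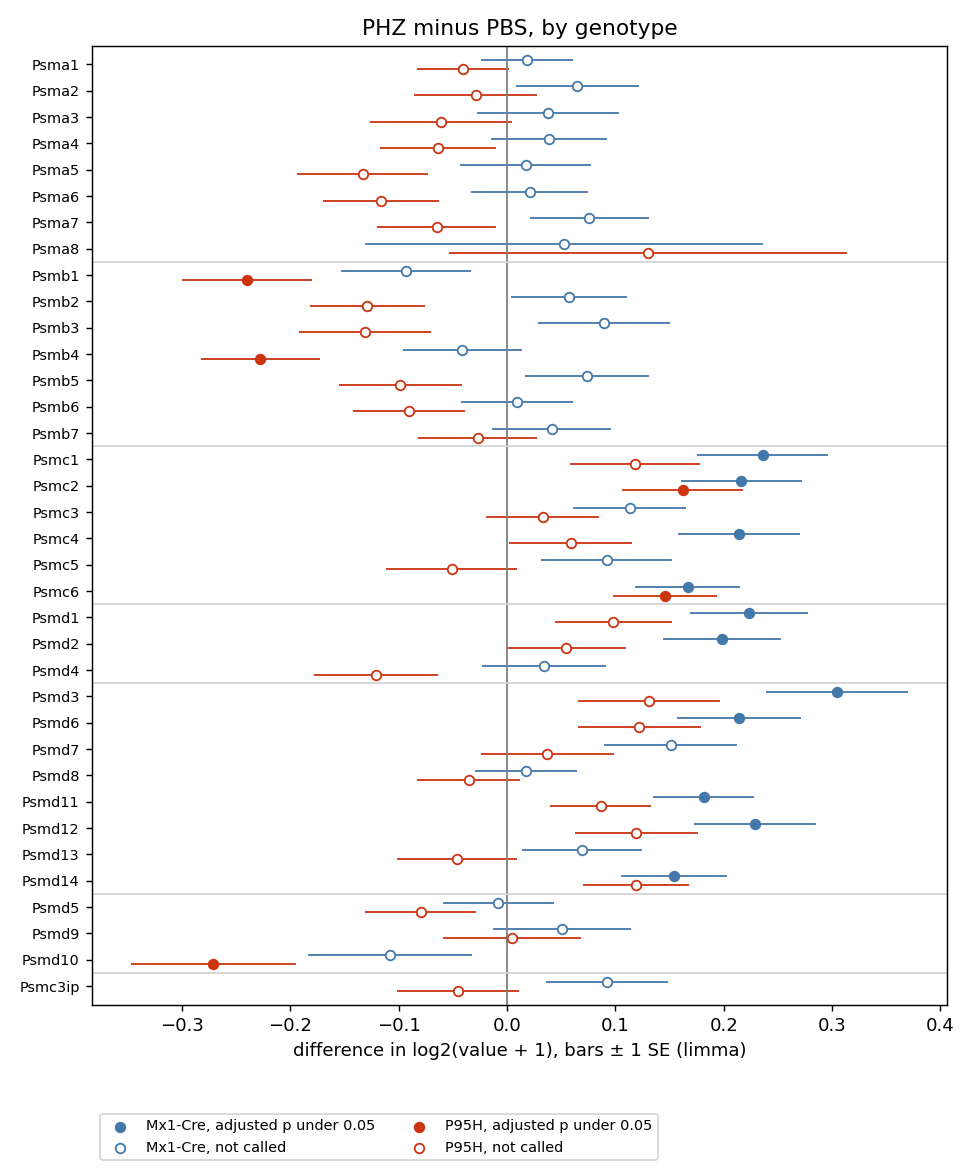
Difference in log2(value + 1) between PHZ and PBS libraries for each member (rows), in Mx1-Cre (blue) and P95H (red) CFU-E; bars are ± 1 SE and filled points have a limma adjusted p under 0.05. Filled blue points are all base or lid genes. Red points of the 14 core genes lie left of 0 in this scaling, whereas 8 of 14 were positive with the authors' factor divided out. Psma8, drawn in the alpha ring but not among these 14, lies right of 0 in red (0.13).

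The balance of regulatory particle RNA to core RNA does not depend on a library's scaling factor, since the factor cancels in a ratio of means. The mean over the 17 base and lid genes divided by the mean over the 14 core genes was 0.678, 0.672, 0.659, 0.609 and 0.654 in the Mx1-Cre PBS libraries and 0.721, 0.738, 0.728, 0.729 and 0.690 in Mx1-Cre PHZ. In P95H mice it was 0.621, 0.628, 0.669, 0.622 and 0.653 under PBS and 0.749, 0.715, 0.717, 0.680 and 0.726 after PHZ. Every PHZ library lay above every PBS library of its genotype. The group means were 0.654 ± 0.0270, 0.721 ± 0.0185, 0.639 ± 0.0213 and 0.717 ± 0.0250 (SD, n = 5 each) in that order. The 2 genotypes had overlapping ranges under each treatment. The groups stayed apart with Adrm1, a ubiquitin receptor, and Sem1, a small lid subunit, added to the 19S mean (0.639 to 0.694 against 0.698 to 0.738 in Mx1-Cre, 0.640 to 0.679 against 0.682 to 0.756 in P95H). The ratio is given without a test because the sets were formed with these results known.

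Lid and base moved alike. The lid to core ratio went from 0.586 ± 0.0311 to 0.647 ± 0.0212 in Mx1-Cre and from 0.569 ± 0.0240 to 0.643 ± 0.0236 in P95H libraries, and the base to core ratio from 0.716 ± 0.0241 to 0.787 ± 0.0198 and from 0.701 ± 0.0195 to 0.783 ± 0.0285 (SD, n = 5 each). Within the core, the beta to alpha ratio was 0.957 ± 0.0198 and 0.940 ± 0.0186 in Mx1-Cre PBS and PHZ, and 0.948 ± 0.00816 and 0.900 ± 0.0268 in P95H PBS and PHZ libraries. The lowest value in P95H PBS was 0.935, and of the 5 P95H PHZ libraries only the first, at 0.947, was above it. The mean core level was 316 ± 12.3, 322 ± 21.9, 338 ± 19.4 and 314 ± 10.4 in controls on PBS, controls on PHZ, P95H on PBS and P95H on PHZ, and the mean base and lid level 207 ± 11.4, 232 ± 10.1, 216 ± 11.4 and 225 ± 4.40.

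**Figure D3:**
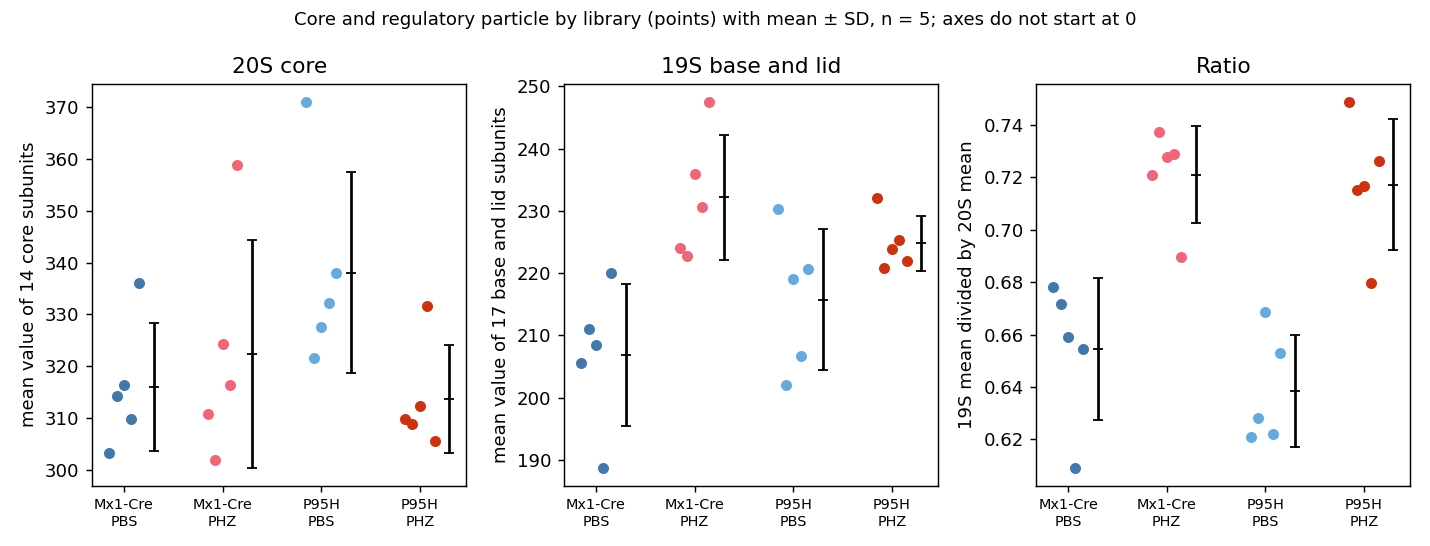
Mean value of the 14 core genes, mean value of the 17 base and lid genes, and their ratio in each library (points) with group mean ± SD (bars, n = 5); the axes do not start at 0. In the third panel the PHZ libraries, 0.680 to 0.749, lie above the PBS libraries, 0.609 to 0.678, within each genotype and over both.

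Transcript length differed between the sets and moved with the PHZ effect over the whole table. Gene length, the median over a gene's annotated coding transcripts, had a median of 1120 bases over the core genes and 1591 over the base and lid genes. Over all entries the median PHZ change went from -0.088 for transcripts under 1000 bases to 0.042 for those of 5000 bases and over in Mx1-Cre, and from -0.16 to 0.071 in P95H. Within transcripts of 1500 up to 2000 bases the medians in Mx1-Cre were 0.15 for 7 base and lid genes, -0.028 for 2 core genes and -0.013 for all entries, and in P95H 0.12, -0.15 and -0.044. Within 1000 up to 1500 bases they were 0.092 for 5 base and lid genes, 0.028 for 6 core genes and -0.021 for all entries in Mx1-Cre, and -0.046, -0.064 and -0.081 in P95H. Entries of similar level, with a mean value of 100 up to 500, had higher medians in the same lengths: 0.059 and 0.029 for 1500 up to 2000 and 1000 up to 1500 bases in Mx1-Cre, and -0.024 and -0.064 in P95H. Beside these, in these lengths, the base and lid medians in Mx1-Cre were above and the core medians below or nearly equal. Within 1000 up to 1500 bases in P95H the base and lid, core and similar-level medians lay close together. Under 1000 bases, 5 core genes had a median of 0.057 in Mx1-Cre, above -0.088 for all entries and -0.031 for entries of similar level. The same medians in P95H were -0.12, -0.16 and -0.16. These bins hold few members, and the part of length in the result was not tested.

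Between genotypes no member passed the test under either treatment. Under PBS, 0 of 36 members were higher in P95H against 0.358% of all entries, and 0 were lower against 1.12%. An unadjusted p under 0.05 was reached by 4 members, all higher in P95H (11.1% against 14.1% of entries in both directions). Psma2, an alpha ring subunit, had the lowest p: it read 331, 369.5, 381, 339 and 399 in Mx1-Cre PBS and 423, 401, 402, 415 and 421 in P95H PBS libraries. All P95H values lay above all control values, a non-overlap seen above for this 1 member and 0.891% of entries, and below for 0 members and 2.78% of entries. The estimate was 0.18 (SE 0.0570, limma adjusted p = 0.122). Psmb3, a beta subunit, read 357, 381, 381, 366 and 413 in Mx1-Cre PBS and 474, 407, 397, 418 and 415 in P95H PBS, overlapping between the highest control and the lower mutant libraries (0.15, limma adjusted p = 0.247).

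The estimates under PBS were small and on 1 side: 35 of 36 were positive, with a median of 0.070 against -0.028 over all entries, and this held for 35 of 36 with the authors' factor divided out and after quantile normalization. Members are measured in the same libraries and move together, so this count is not 36 separate observations. The summed member level was 7906 to 8811 in Mx1-Cre PBS and 8297 to 9515 in P95H PBS libraries, overlapping. The first P95H PBS library was the highest of its group for 29 of 36 members, 13 of the 14 core genes among them, and had the summed level of 9515; the other 4 reached at most 8856. Without it 29 of 36 estimates were positive with a median of 0.036, and without the fourth Mx1-Cre PBS library 30 of 36 with a median of 0.054. Granulocyte and monocyte markers were also higher in estimate in P95H under PBS (median 0.89, 0 of 16 called), and with their mean level as a covariate 33 of 36 member estimates were positive, with a median of 0.045. For Psmb5, the chymotrypsin-like subunit and target of proteasome inhibitors, the values were 191, 195, 206, 201 and 224 in Mx1-Cre PBS and 235, 207, 212, 212 and 217 in P95H PBS, and 203, 206, 223, 207 and 229.9 in Mx1-Cre PHZ and 220.3, 199, 198, 212 and 183 in P95H PHZ. Its groups overlapped in every comparison, and the 95% limits of the genotype difference were -0.029 to 0.21 under PBS and -0.20 to 0.040 under PHZ.

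Under PHZ, 0 members were higher in P95H against 1.1% of entries and 0 were lower against 4.37%. The lowest adjusted p was 0.135, for the beta subunit Psmb2, which read 279.6, 264, 297, 280.1 and 319 in Mx1-Cre PHZ and 257, 260.0, 267, 271 and 252 in P95H PHZ libraries. Only the lowest control value fell within the mutant range; the estimate was -0.14 (SE 0.0533). Psmc3ip, the recombination factor, read 51.7, 48.8, 53.3, 53.9 and 54.6 in Mx1-Cre PHZ and 51.6, 45.6, 48.5, 50.4 and 44.7 in P95H PHZ (-0.12, limma adjusted p = 0.214); under PBS it read 45.9, 51.2, 50.7, 47.9 and 49.9 and 56.3, 48.6, 47.7, 46.1 and 50.1. These were the 2 members with an unadjusted p under 0.05 (5.56% against 21.5% of entries). The lid subunit Psmd13 lay wholly below in P95H, 1 member against 5.38% of entries below, and 0 members lay above against 1.57% (-0.11, limma adjusted p = 0.267). The members' median was -0.042 with 28 of 36 negative, against -0.054 over all entries. It turned to 0.018 with the authors' factor divided out and 0.025 after quantile normalization. Without Mx1-Cre PHZ library 5 it was -0.013, with 12 of 36 estimates positive in place of 8.

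**Figure D4:**
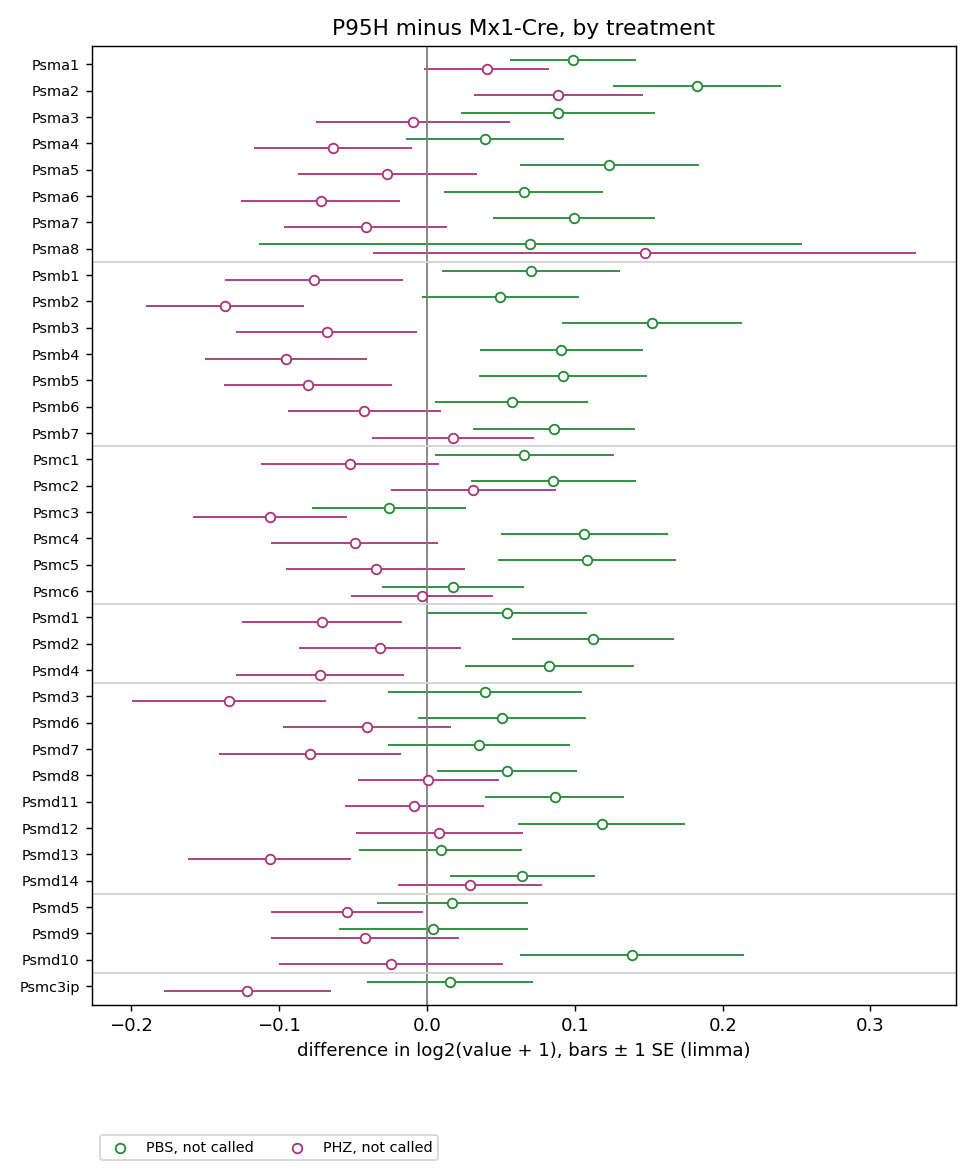
Difference in log2(value + 1) between P95H and Mx1-Cre libraries for each member (rows), under PBS (green) and PHZ (purple); bars are ± 1 SE, and no point has a limma adjusted p under 0.05. Green points lie right of 0 for 35 of 36 members; purple points lie left for 28 in this scaling, and their median turns positive with the authors' factor divided out or after quantile normalization.

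Whether the PHZ response differed between genotypes was tested by the interaction term. It was called for 0 members in either direction, and 0% of all entries were called higher and 0% lower, with a lowest adjusted p of 0.798. An unadjusted p under 0.05 was reached by 577 entries (5.3%) and by 4 members (11.1%), the beta subunits Psmb3, Psmb2, Psmb4 and Psmb5, all with a more negative change in P95H. Psmb3 had the lowest p: after PHZ it read 369, 374, 427, 394 and 459.7 in Mx1-Cre and 379.8, 382, 373, 405 and 384 in P95H libraries, beside the PBS values above. Its PHZ estimate was 0.089 in Mx1-Cre and -0.13 in P95H, an interaction of -0.22 (95% limits -0.40 to -0.038, limma adjusted p = 0.798). For Psmb2, which read 277, 277, 271, 259.6 and 297 in Mx1-Cre PBS and 312, 268, 272, 286 and 292 in P95H PBS libraries, the interaction was -0.19. The values of Psma2 after PHZ, 360.0, 353, 388, 372 and 431 in Mx1-Cre and 402, 398, 404, 429 and 389 in P95H, and of Psmd3 in P95H, 232, 202, 247, 221 and 229.7 under PBS and 271, 239, 249.9, 243 and 236 after PHZ, gave interactions of -0.094 and -0.17. Psmd1 read 202, 171, 181, 176 and 179 and 196, 191, 194, 197 and 193 in P95H under PBS and PHZ, a change of 0.10 that was not called and an interaction of -0.13.

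The members' median interaction was -0.115, with 35 of 36 negative, against -0.027 over all entries. With 1 library left out it ran from -0.141 (without P95H PBS 2) to -0.087 (without P95H PBS 1). It was -0.056 with the authors' factor divided out, where the median of all entries tested was 0.028, and -0.033 after quantile normalization (all entries 0.00061), with 7 and 10 of 36 positive. Granulocyte and monocyte markers had a median interaction of -0.88, with 0 of 16 called. With their mean level as a covariate the members' median interaction was -0.095, with 0 of 36 positive, against -0.028 over all entries tested.

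The other genes of the system were read from lists chosen for their role. Over all entries tested, 17% were called higher and 14.9% lower after PHZ in Mx1-Cre, and 12.6% and 17.7% in P95H. The inducible subunits and caps, which replace or cap the constitutive parts in immune cells and after interferon, fell together after PHZ: 4 of 5 in Mx1-Cre and 5 of 5 in P95H CFU-E. Psmb9 went from 36.5 ± 9.70 to 12.2 ± 2.50 in Mx1-Cre (-1.48, limma adjusted p = 7.82e-05) and from 48.0 ± 22.9 to 10.3 ± 1.25 in P95H (-2.02; SD, n = 5). The log2 changes in Mx1-Cre and P95H were -0.96 and -1.60 for Psmb8, -0.48 and -0.80 for the 11S cap subunit Psme1 and -0.30 and -0.69 for its partner Psme2. Psmb10 was called in P95H alone (-0.47), with an interaction of -0.36 that was not called (limma adjusted p = 0.798). The fourth P95H PBS library was the highest of its group for all 5 genes, at 88.2 for Psmb9 (others 32.9 to 44.4), 51.9 for Psmb8 (22.4 to 34.2), 69.9 for Psmb10 (40.5 to 50.2), 322.6 for Psme1 (176.5 to 206.7) and 207.2 for Psme2 (147.0 to 168.0). Without it the log2 changes in P95H were -1.78 for Psmb9, -1.41 for Psmb8, -0.34 for Psmb10 (limma adjusted p = 0.0499), -0.65 for Psme1 and -0.60 for Psme2, and all 5 calls held. With the granulocyte and monocyte marker level as a covariate the calls on Psmb8, Psmb9 and Psme1 held in both genotypes. That on Psme2 held in P95H and was lost in Mx1-Cre (limma adjusted p = 0.0591), and that on Psmb10 in P95H was lost (0.305). In P95H the marker level and PHZ are hard to tell apart, as given above. The alternative caps Psme3 and Psme4 rose in Mx1-Cre (0.30 and 0.27), and Psme4 in P95H (0.32).

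Of 5 core assembly factors found, none was called after PHZ in Mx1-Cre CFU-E and 2 fell in P95H: the maturation factor of the core, Pomp (-0.28), and Psmg4 (-0.25). The call on Psmg4 was lost with the authors' factor divided out (limma adjusted p = 0.170) and without P95H PBS library 1 or 3 or P95H PHZ library 1 or 5 (up to 0.0966). Pomp was also called lower in mutant than in control CFU-E on PHZ, at 237 ± 10.7 against 276 ± 19.4 (SD, n = 5; -0.22, limma adjusted p = 0.0484), a call lost with the factor divided out (0.108), after quantile normalization (0.0965) and with 1 library left out in most cases (up to 0.121). Of 9 proteasome-bound factors, 4 rose and 2 fell in Mx1-Cre, and 2 rose and 2 fell in P95H. Over all entries tested, 17% rose and 14.9% fell in Mx1-Cre, and 12.6% and 17.7% in P95H. The deubiquitinase Usp14, which binds the 19S base, rose from 105 ± 6.70 to 131 ± 4.83 in Mx1-Cre and from 103 ± 6.39 to 134 ± 5.69 in P95H (0.33 and 0.38), and the ubiquitin receptor Adrm1 rose in Mx1-Cre (0.28). Sem1, a small lid subunit outside the symbol rule, fell in both (-0.26 and -0.38), as did the 19S-bound thioredoxin Txnl1 (-0.34 and -0.37). The call on Sem1 in Mx1-Cre was lost without the fourth Mx1-Cre PBS library (limma adjusted p = 0.0521).

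Of 9 tested genes of proteasome transcription and its control, 2 rose and 1 fell in Mx1-Cre and 1 rose and 2 fell in P95H CFU-E after PHZ. These counts were near the shares over all entries tested, 17% and 14.9% in Mx1-Cre and 12.6% and 17.7% in P95H. Nfe2l1 was not called in any comparison; it read 32.7 ± 1.79 and 36.9 ± 2.14 in Mx1-Cre PBS and PHZ (0.17, limma adjusted p = 0.0742). Nfe2l2 fell after PHZ in P95H, from 128 ± 4.85 to 105 ± 8.55 (-0.29, limma adjusted p = 0.000671), and was called lower in mutants than in controls on PHZ (-0.26, limma adjusted p = 0.00864), a call lost with the factor divided out (0.0769) and after quantile normalization (0.0543). Its change in Mx1-Cre was -0.093 and not called, and the interaction was -0.19 (limma adjusted p = 0.798). Ngly1, the glycanase that processes Nfe2l1, fell in both genotypes (-0.34 and -0.32), and Sel1l, of endoplasmic reticulum degradation, rose in both (0.33 and 0.28). Of 7 tested delivery factors, which carry ubiquitinated proteins to the proteasome, 3 rose in Mx1-Cre, and 2 rose and 1 fell in P95H; Rad23b rose in both (0.28 and 0.27), as did Nploc4 (0.23 and 0.23). With the granulocyte and monocyte marker covariate, which is hard to tell apart from PHZ in P95H, the P95H calls on Usp14, Txnl1 and Nfe2l2 held. Those on Sel1l (limma adjusted p = 0.668), Ngly1 (0.422), Psmg4 (0.127), Nploc4 (0.121), Sem1 (0.116), Pomp (0.0832), Rad23b (0.0645) and Psme4 (0.0627) were lost, as was that on Sem1 in Mx1-Cre (0.0878).

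Some counts may share reads with neighbours. Exons of Psma4, Psma5, Psmb5, Psmb7, Psmc3, Psmc3ip, Psmd1, Psmd3, Psmd9 and Psmd13 overlap those of another annotated gene, and the sources used here do not say whether the counting used strand. Processed pseudogenes with a symbol of the same pattern were low: Psmb5-ps was listed at 0 and Psmb6-ps and Psmb7-ps2 reached at most 0.251 and 0.634. Pseudogenes under other names were not looked at. In GRCm38 with GENCODE vM21, Psmd3 (ENSMUSG00000017221) spans chr11:98682554-98695979 on the plus strand, Psmb4 (ENSMUSG00000005779) chr3:94884093-94886961 on the minus strand and Psmb1 (ENSMUSG00000014769) chr17:15475021-15499751 on the minus strand.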

How the data were processed

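Values for 20 libraries were read from the signal table that the authors deposited. The submitters' processing notes list RSEM 1.2.4, TopHat2 2.0.8b, TopHat and Bowtie beside the builds mm10, GRCm38, hg19 and GRCh37, without saying what each was used for. Each library's values are multiples of 0.01 of a single factor (100% of values at a tolerance of 0.01), the form of TPM rounded and rescaled; annotation release and strand use are not given in the sources used here. Symbols and positions came from GENCODE vM21 (35986 of 37748 entries with a symbol). limma 3.58.1 in R 4.3.3 fitted log2(value + 1), 1 mean per group over all 20 libraries, with trended and robust moderation, 5 contrasts and two-sided Benjamini-Hochberg adjustment over 10890 entries; it was tested on simulated data. A change on this scale understates that of low genes. Values in every library are given for the 2 members with the lowest p in each contrast, Psmb5 and called members in P95H contrasts. Of the related lists up to 3 genes per contrast, Nfe2l1 and Nfe2l2 were named, and Psmb8, Psmb10, Sem1 and others beyond that were named after their values were seen. Members, lists and tests were chosen with earlier results of these data known. Alternatives covered scaling, pseudocount, filter, groups fitted, replicate block, marker covariate and left-out libraries; ratios, related genes under other settings and members without Psma8, Psmc3ip and the chaperones were added after seeing the data. The ubiquitin and E1 list is not reported here.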

Additional observations from a re-analysis of the deposited data

Results flagged for a closer look

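In 144 groups of 5 libraries (36 members in 4 groups), 18 had 1 library whose gap to the nearest of the others as a share of the group's range exceeded Dixon's 95% critical value; chance flags about 1 in 20 such groups, and genes of a library are not independent. Mx1-Cre PBS library 4 stood apart for 5 members: it was high for Psmb1 (386.8, others 336.9 to 350.0) and low for Psmd3 (184.1, others 225.4 to 234), Psmd11 (137.9, others 155.7 to 162.6), Psmd12 (108.6, others 126.3 to 132.7) and Psmd14 (177.1, others 198.2 to 200.9). It had the lowest 19S to 20S ratio, 0.609. The same group held a low Psma3 in library 1 (291.6, others 327.6 to 333.3) and a high Psmb4 in library 5 (472.5, others 421.1 to 433.9).

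Mx1-Cre PHZ library 5 was high for Psma5 (353.3, others 299.6 to 314.2), Psmb7 (305.8, others 255.1 to 268.5) and Psmd7 (324.5, others 287.8 to 297.7). P95H PBS library 1 was high for Psma6 (347.5, others 292.1 to 305.9), Psmb3 (474.1, others 397 to 417.6) and Psmb6 (285.4, others 249.5 to 259.6), and library 4 was low for Psmd12 (122.1, others 136.1 to 140.8). P95H PHZ library 4 was high for Psma4 (287.7, others 264.6 to 269) and Psma7 (391.5, others 356.6 to 362.8), and library 2 was low for Psmd11 (168, others 174.5 to 176.5) and Psmd8 (159.4, others 170.9 to 173.7).

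In 20 groups of the 5 inducible subunits and caps, 2 met the same criterion: P95H PBS library 4 was high for Psmb9 (88.2, others 32.9 to 44.4) and Psme1 (322.6, others 176.5 to 206.7).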

How the results depend on the processing

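Counts called in Mx1-Cre CFU-E after PHZ moved little, from 11 higher and 0 lower to between 9 and 14 higher, with 1 lower after quantile normalization. In P95H CFU-E after PHZ, members called higher numbered 2 as reported, 11 with the authors' factor divided out, 8 after quantile normalization, 1 with only the groups compared in the fit, 0 with the marker covariate, 0 without P95H PBS libraries 4 and 5 together, and 0 to 4 with 1 library left out; members called lower numbered 3 as reported, 1 with the factor divided out and 0 with the covariate. The median in that comparison was 0.067 with the factor divided out and 0.031 with the covariate, in place of -0.038. The median of P95H against Mx1-Cre after PHZ was 0.018 with the factor divided out and 0.025 after quantile normalization, and the median interaction -0.056 and -0.033. The cause of these moves was not tested, and in P95H the marker level and PHZ are hard to tell apart. Of the other counts and medians, 148 stayed within their limits over the settings that kept all libraries or dropped a pair, and 294 with 1 library left out. The limit was a fixed ratio for counts and 1 SD between libraries for medians, and comparisons with 0 members called are included. Leaving out 1 of 5 libraries can hardly move a median by that limit, so the 294 says little about dependence on a single library. For single members, 1729 results kept their side of the threshold, 22 passed it and 13 lost it. With 1 library left out, 3584 kept it, 7 passed it and 9 lost it. These numbers include members that were not called and left-out libraries outside the contrast, so they say little about the calls. The 9 losses were all of Psmc2 or Psmc6 in P95H or of Psmd14 in Mx1-Cre. Of 40 calls on genes of the related lists, 5 were lost with the factor divided out, 6 after quantile normalization, 17 with the marker covariate and 11 without at least 1 library. Group means of the 19S to 20S ratio moved by less than 1 SD with Adrm1 and Sem1 added, and the factor cancels in the ratio. Leaving out 1 of 5 libraries cannot move a group mean by 1 SD, so this criterion could not show dependence on a single library.

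Replicate numbers did not pair the libraries: over 30 same-numbered pairs the correlation of deviations from the group means ran from -0.306 to 0.441 (median 0.028), and 4 of 20 libraries correlated best with their own number. With the replicate number as a replicate block, 11 members were called higher and 0 lower after PHZ in Mx1-Cre, and 2 higher and 3 lower in P95H. The number of libraries and unknown read counts limit the precision: SEs of the 36 members ran from 0.0424 to 0.184 (median 0.0561) for a contrast of 2 groups.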
